A study of Mus musculus with 12 samples.

Results

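The 78 genes described here encode proteins of the mitochondrial ribosome and were chosen by symbol: Mrpl (large subunit) or Mrps (small subunit), followed by a number and at most 1 letter from a to c. They are 78 of the 54446 gene identifiers listed for every library, and by symbol 49 belong to the large and 29 to the small subunit. A further 5 rows with such a symbol ending in -ps followed by an optional number, which are annotated pseudogene copies, were left out. All 78 are annotated as protein-coding, and all passed the filter on low values, a mean of at least 1 TPM (a transcript level corrected for length and scaled to a fixed sum in each library) over the 12 libraries.

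The libraries come from mouse embryonic stem (ES) cells of 2 lines, each in 3 groups of 2 libraries. KH cells are the wild-type line, and in DNMT3ABKO cells Dnmt3a and Dnmt3b, which encode the enzymes of de novo DNA methylation, are knocked out. Cells were collected without treatment (0 h) or after 72 or 144 h with INK128, which blocks the kinase mTOR (mTORi); blocking mTOR is known to put ES cells into a pause like that of embryos in diapause. Both lines carry the name E14 in the labels, while in the methods of the study the wild-type line is KH2 and both lines were grown on a layer of mitotically inactive fibroblasts, and cells were sorted before RNA extraction. Each genotype is 1 line, and no untreated culture of 72 or 144 h is among the libraries, so time in culture and mTORi cannot be told apart. The labels do not say whether replicates came from separate cultures, and the study states only in general terms that its experiments were repeated independently. The p-values measure the spread between these libraries, which may be technical.

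Mitochondria carry their own ribosome, the mitoribosome, which translates the few messenger RNAs of the mitochondrial genome, all of them for subunits of the oxidative phosphorylation complexes. Its ribosomal RNAs come from the mitochondrial genome, while every one of its proteins is encoded in the nucleus, made by cytosolic ribosomes and imported. The small subunit reads the messenger RNA at the decoding centre, and the large subunit joins the amino acids and releases the chain next to the inner membrane. The mTOR kinase promotes both the synthesis of cytosolic ribosomes and the expression of mitochondrial genes. Symbols do not follow the structure in every case: the products of Mrps30 and Mrps18a lie in the large subunit, and that of Mrps36 is a component of the 2-oxoglutarate dehydrogenase complex.

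Several facts about the libraries bear on all values below. Dnmt3a stood at 54.7 to 144 TPM in the KH libraries and at 7.35 to 21.9 TPM in the DNMT3ABKO libraries, and Dnmt3b at 142 to 258 and 12.7 to 27.5 TPM, so each DNMT3ABKO library lay below all KH libraries for both genes. The first DNMT3ABKO library at 0 h stood apart: genes of the mitochondrial genome made up 7474.5 TPM there and 17659.5 to 28551.4 TPM in the other 11 libraries, and the residual spread of the members in that group was 0.204 (SD on the log2 scale) against 0.075 to 0.115 in the other 5 groups. The main results that rest on that group are therefore also given without each of its libraries, as medians, fold changes or correlations. The 10 ES cell markers were detected in all libraries. Their summed level was 4395 to 4692 TPM at 0 h, 6393 to 6677 TPM at 72 h and 6809 to 7034 TPM at 144 h. The 19 fibroblast markers also had a summed level of 3395 to 4064 TPM at 0 h, 1215 to 1553 TPM at 72 h and 514.7 to 744.3 TPM at 144 h. The 10 macrophage markers had 252.9 to 313.7 TPM at 0 h, 123.0 to 187.4 TPM at 72 h and 21.0 to 37.5 TPM at 144 h. Of the fibroblast markers none and of the macrophage markers 1 (in KH cells at 144 h) was at 0 in both libraries of a group. The ES cell, fibroblast and macrophage markers thus all move with the time points along which the members are compared below. Their part in the results was not tested. In such bulk samples, fewer cells of a type and less RNA per cell cannot be told apart. The values are shares of each library's RNA, so a change in the RNA content of the cells was not analysed here.

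Summed over the members, mitoribosomal protein transcripts had a smaller share of the RNA after mTORi than before in every library of both lines. In KH cells the 78 genes summed to 3879 and 4167 TPM at 0 h, to 3315 and 3261 TPM at 72 h and to 3057 and 3089 TPM at 144 h. In DNMT3ABKO cells the sums were 3660 and 4071 TPM at 0 h, 3236 and 3211 TPM at 72 h and 3005 and 3053 TPM at 144 h. In each line the libraries of the 3 time points did not overlap, and the largest step lay between 0 and 72 h. The large subunit went from 2731 ± 111 TPM (SD, n = 2 here and for all group values) at 0 h to 2067 ± 8.87 TPM at 144 h in KH cells. In the DNMT3ABKO line it went from 2640 ± 182 to 2063 ± 29.2 TPM. The small subunit went from 1292 ± 92.8 to 1006 ± 13.4 TPM and from 1225 ± 108 to 966 ± 4.69 TPM. Because the sums follow the most abundant genes, the ratio of the large to the small subunit was also taken in each library, and it stayed between 2.04 and 2.19 in all 12.

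**Figure D1:**
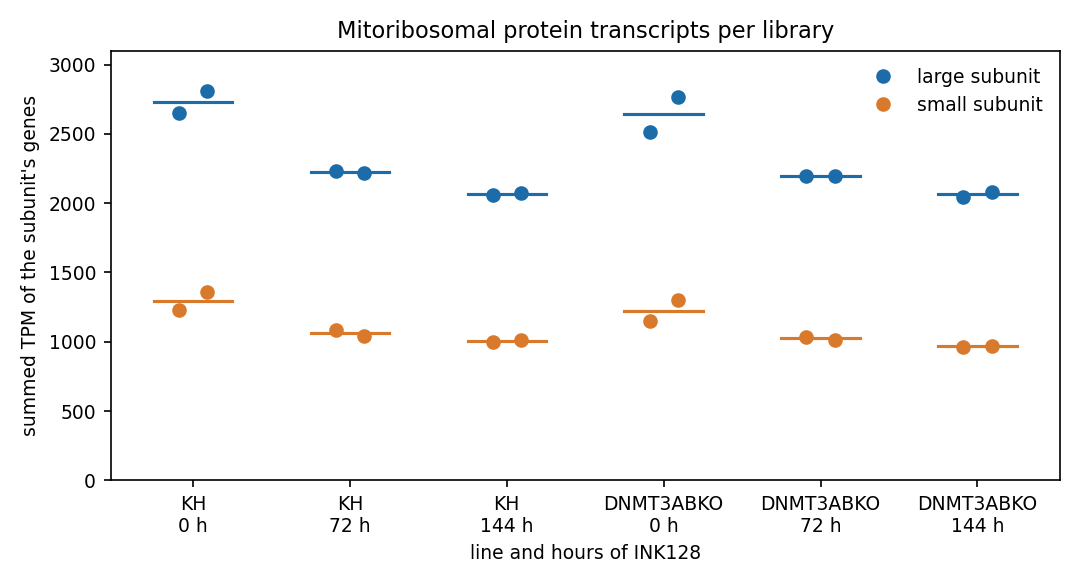
Summed TPM (vertical axis) of the 49 large-subunit genes (blue) and the 29 small-subunit genes (orange) in each of the 12 libraries, by line and hours of INK128; points are libraries and lines are group means. Both subunits are highest at 0 h and lowest at 144 h in each line, with the large subunit at 2042 to 2809 TPM and the small subunit at 963 to 1357 TPM.

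At the level of single genes, the members had means over the 12 libraries between 10.8 and 105 TPM, with a median of 41.1 TPM (43.9 TPM for the large and 36.4 TPM for the small subunit). TPM is corrected for transcript length, so these levels can be set side by side. The highest were Mrpl24 (105 TPM), Mrpl18 (104 TPM) and Mrps18b (104 TPM), and the lowest Mrps25 (10.8 TPM), Mrpl57 (12.7 TPM) and Mrps35 (12.8 TPM). The ranges of the 3 highest over the libraries overlapped, at 94.9 to 122 TPM for Mrpl24, 84.8 to 136 TPM for Mrpl18 and 86.5 to 124 TPM for Mrps18b. Some of these values carry a doubt, because the use of strand in counting is not stated in the sources used here. Of the annotated exon bases of Mrps25, 69.8% overlap Nr2c2 on the opposite strand, and so do 26.3% of those of Mrpl24 with Rrnad1, 30.5% of those of Mrps18b with Gm16279 and 10.1% of those of Mrpl18 with Tcp1.

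Which members changed was tested gene by gene with limma on log2(TPM + 1), across 15727 genes, and genes with an adjusted p (Benjamini-Hochberg) under 0.05 were called. Fold changes below are on that log2 scale. In KH cells at 72 h, 39 of the 78 members were lower than at 0 h (19.5% of all tested genes were called lower) and 4 were higher (28.3% of all tested genes). At 144 h, 49 members were lower (23.9% of all tested genes) and none was higher (27.4%). The median over the 78 members was −0.27 at 72 h and −0.37 at 144 h, against 0.08 and 0.05 over all tested genes. In DNMT3ABKO cells, 40 members were lower at 72 h (21.6% of all tested genes) and 6 were higher (34.3%), with a median of −0.26. At 144 h, 45 members were lower (26.2%) and 5 were higher (31.4%), with a median of −0.31. All tested genes had medians of 0.12 and 0.05 in these 2 comparisons. The 72 and 144 h comparisons of a line share their 0 h libraries, so their counts are not independent of each other.

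The members' medians in DNMT3ABKO cells moved with the 0 h library used, and they were below 0 with either. The median over all tested genes moved as well. It was 0.04 at 72 h and −0.01 at 144 h without the first 0 h library, and 0.19 and 0.13 without the second. Without the first 0 h library, the members' median was −0.35 at 72 h and −0.41 at 144 h. Without the second, it was −0.16 and −0.22. Rescaling the libraries by their median ratio over genes raised the calls at 72 h to 58 lower in each line. The members' median was then −0.37 for KH and −0.39 for DNMT3ABKO. The KH libraries were divided by 0.9593 and 1.016 at 0 h and by 1.058 each at 72 h. The DNMT3ABKO libraries were divided by 0.8888 and 1.006, then by 1.043 and 1.021. This lowers all genes at 72 h against 0 h. The share of all tested genes called lower after it is not given, so the count describes the members alone.

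The 2 lines share no library in these comparisons, so their responses can be set against each other. At 72 h, 32 members were called lower in both lines, which is 82.1% of those called in KH cells and 80.0% of those called in DNMT3ABKO cells. At 144 h the number was 42, or 85.7% and 93.3%. Over all tested genes the shares called lower in both lines were 78.5% and 70.9% at 72 h, then 80.9% and 73.9% at 144 h. With 1 DNMT3ABKO library at 0 h left out, that group has no replicate, so shared calls are not given for it. With all libraries, no member was called in opposite directions. Such calls were also rare over all 15727 tested genes, at 61 at 72 h and 102 at 144 h. Across the 78 genes, the fold changes of the lines correlated with a Pearson r of 0.73 at 72 h and 0.86 at 144 h (0.82 and 0.79 over all 15727 tested genes). The members' values were 0.71 and 0.87 without the first DNMT3ABKO library at 0 h and 0.66 and 0.79 without the second. Those over all tested genes were 0.815 and 0.786 without the first and 0.768 and 0.75 without the second. Genes are not independent replicates and the members of a line share its libraries, so these values only describe the libraries.

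**Figure D2:**
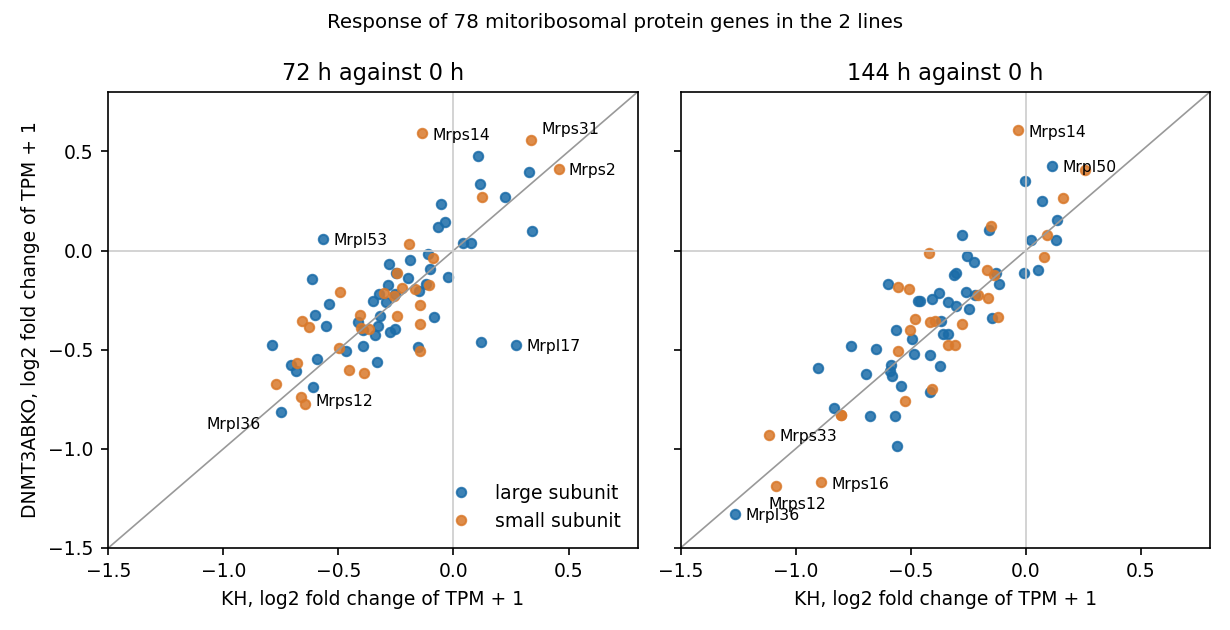
Log2 fold change of TPM + 1 against 0 h in KH (horizontal axis) and DNMT3ABKO cells (vertical axis) at 72 h (left) and 144 h (right) for the 78 genes; blue points are large and orange points small subunit, and the diagonal marks equal change. Most points lie below 0 on both axes, and the lowest at 144 h is Mrpl36 at −1.26 and −1.33.

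The medians of the large and small subunit were close in KH cells, and in DNMT3ABKO cells that of the small subunit was the lower one. In KH cells at 72 h the median was −0.28 for the 49 large-subunit genes (2 higher, 23 lower) and −0.26 for the 29 small-subunit genes (2 higher, 16 lower). At 144 h the medians were −0.37 (32 lower) and −0.39 (17 lower), with none called higher in either subunit. In DNMT3ABKO cells at 72 h they were −0.26 (3 higher, 22 lower) and −0.32 (3 higher, 18 lower), and at 144 h −0.28 (2 higher, 29 lower) and −0.35 (3 higher, 16 lower). Without the first 0 h library of that line the large and small subunit had medians of −0.33 and −0.38 at 72 h, then −0.41 and −0.42 at 144 h. Leaving out the second gave −0.10 and −0.17, then −0.19 and −0.25. Subunits were also assigned by structure, with Mrps30 and Mrps18a counted with the large subunit, where their products lie, and Mrps36 left out. The median at 144 h was then −0.36 for the large and −0.40 for the small subunit of KH cells. For those of DNMT3ABKO cells it was −0.26 and −0.36 at 144 h, and −0.22 and −0.33 at 72 h. The difference between the subunits was not tested, since the genes of a subunit are not replicates. Proteins with a counterpart in bacterial ribosomes and those found only in mitochondria also lay close together. At 144 h in KH cells, 29 of the 48 members with a bacterial homologue and 20 of the 30 mitochondrion-specific members were lower, with medians of −0.37 and −0.36.

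The members spread over a wide range around these medians. The extremes at 144 h in KH cells were −1.26 for Mrpl36 and 0.26 for Mrps2, which was not called there. A total of 14 members were called in none of the 6 comparisons between time points: Mrpl1, Mrpl16, Mrpl19, Mrpl22, Mrpl23, Mrpl32, Mrpl35, Mrpl47, Mrpl49, Mrps5, Mrps18a, Mrps18b, Mrps22 and Mrps34. The share of all tested genes called in none of the 6 was not taken, so the number describes the members alone. Among these 14 the standard errors ran as high as 0.22 for Mrpl1 and 0.21 for Mrps34, which is of the order of the median responses given above. Mrps34 also shares 63.4% of its exon bases with Mapk8ip3 and 37.0% with Nme3.

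**Figure D3:**
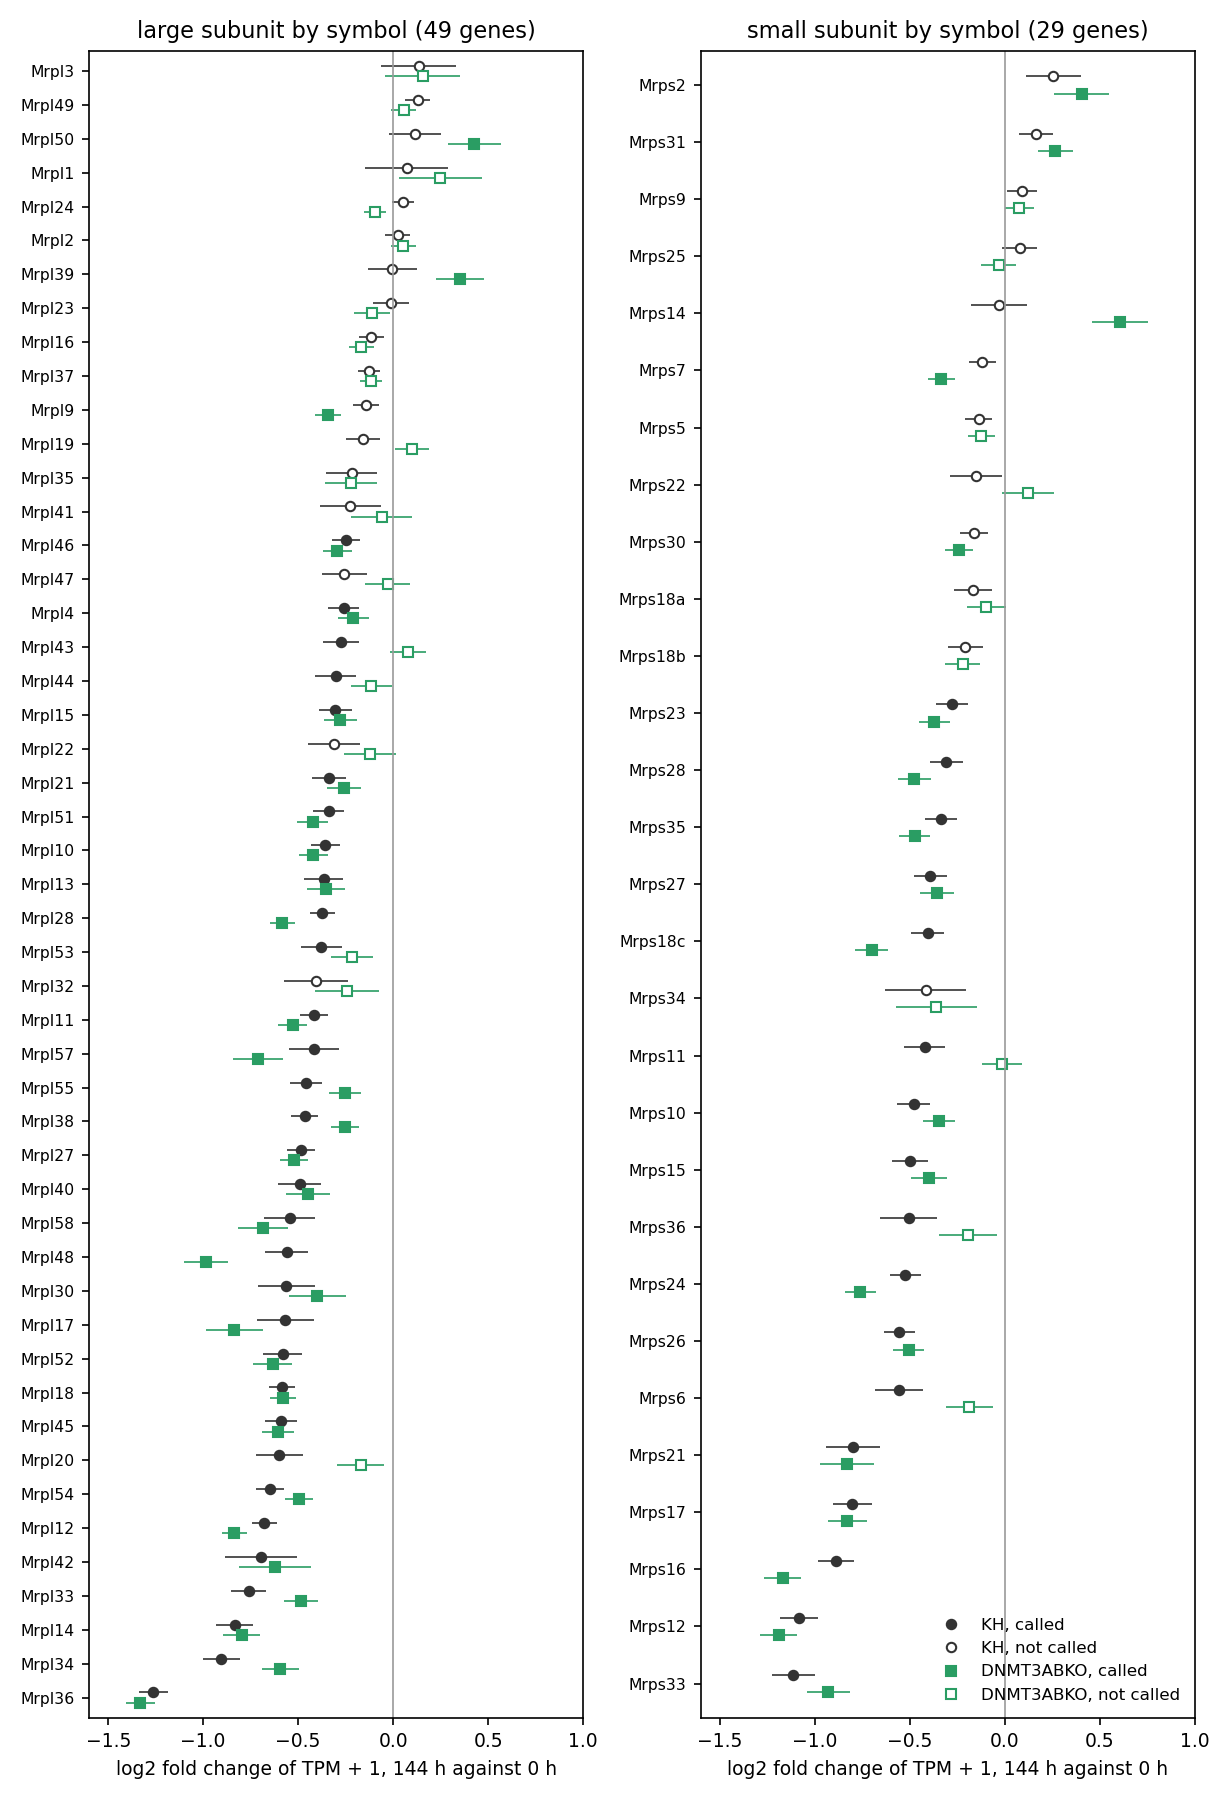
Log2 fold change of TPM + 1 at 144 h against 0 h for each of the 78 genes, ranked within the large (left) and small subunit (right) by the value in KH cells; circles are KH, squares DNMT3ABKO, bars standard errors, and filled symbols are called at an adjusted p under 0.05. The order runs from near 0.14 (Mrpl3) to −1.26 (Mrpl36) in the large and from 0.26 (Mrps2) to −1.11 (Mrps33) in the small subunit of KH cells.

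Among the large-subunit genes, Mrpl36 (ENSMUSG00000021607.9, mm10 chromosome 13, 73328513 to 73332178, plus strand), the counterpart of the small bacterial protein bL36, fell most in both lines at 144 h. It stood at 48.8 and 53.1 TPM at 0 h, at 30.6 and 29.2 TPM at 72 h and at 20.2 and 21.1 TPM at 144 h in KH cells. The DNMT3ABKO libraries had 46.4 and 49.2 TPM at 0 h, then 25.7 and 27.8 TPM, then 19.0 and 17.8 TPM. The libraries of the time points did not overlap in either line, and at 144 h 40.5% and 38.5% of the 0 h level remained (log2 fold changes of −1.26 ± 0.08 and −1.33 ± 0.08 (SE), adjusted p = 8.6e-07 and 3.09e-07 by limma). It was also lower at 144 than at 72 h, by −0.51 in KH and −0.52 in DNMT3ABKO cells (adjusted p = 0.00116 and 0.000776 by limma).

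Mrpl34, the counterpart of bacterial bL34, had the largest fall of all members in KH cells at 72 h. It went from 85 and 91.9 TPM at 0 h to 53.5 and 48.0 TPM at 72 h and 46.2 and 47.3 TPM at 144 h in KH cells, or −0.79 ± 0.10 and −0.90 ± 0.10. The DNMT3ABKO libraries went from 77.3 and 91.6 TPM to 59.6 and 60.7 TPM and then to 59.1 and 52.0 TPM, or −0.48 ± 0.10 and −0.59 ± 0.10. These falls were called in both lines. Mrpl48 in DNMT3ABKO cells fell between 0 and 72 h and again by 144 h, from 26.4 and 24.7 TPM through 18.5 and 19.8 TPM to 11.2 and 13.7 TPM, and its step from 72 to 144 h was −0.59 ± 0.11 (adjusted p = 0.00389 by limma). A pseudogene copy, Mrpl48-ps, was listed at 1.30 to 3.26 TPM, so the split of reads between the copies is uncertain.

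Large-subunit proteins with a function beyond the ribosome core were also measured. Mrpl12, a protein of the stalk that recruits translation factors and that also binds the mitochondrial RNA polymerase, had 119 and 124 TPM at 0 h in KH cells. It had 78.7 and 71.9 TPM at 72 h and 74.9 and 76.2 TPM at 144 h, which is −0.68 ± 0.07 against 0 h at each (144 against 72 h 0.01 ± 0.07). In DNMT3ABKO cells it went from 118 and 112 TPM to 73.4 and 76.9 TPM and on to 65.3 and 62.8 TPM, and the second step was called as well (−0.23 ± 0.07, adjusted p = 0.0281 by limma). Mrpl45, which anchors the large subunit to the inner membrane at the exit of the peptide tunnel, showed the same early step, from 74.0 and 84.1 TPM to 50.8 and 51.7 TPM and 51.4 and 52.7 TPM in KH cells. Its DNMT3ABKO values of 75 and 86.2, 50.8 and 48.2, and 51.3 and 53.5 TPM were close to these, and all 4 falls from 0 h were called (−0.59 to −0.69). Mrpl58, a peptidyl-tRNA hydrolase built into the ribosome, was called lower at 144 h in both lines (−0.54 ± 0.13 and −0.69 ± 0.13) and at 72 h in DNMT3ABKO cells (−0.49 ± 0.13).

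In the small subunit, the steepest falls at 144 h were those of Mrps33, Mrps12 and Mrps16 in both lines, and at 72 h in KH cells that of Mrps21. Mrps12 (ENSMUSG00000045948.8, mm10 chromosome 7, 28739641 to 28741820, minus strand), the decoding-centre protein homologous to bacterial uS12, had 55.2 and 55.5 TPM at 0 h in KH cells, 36.6 and 33.5 TPM at 72 h and 26.0 and 25.2 TPM at 144 h. In DNMT3ABKO cells it had 72.0 and 58.5, 36.4 and 38.6, and 29.1 and 26.7 TPM. The time points did not overlap in either line, and the fold changes at 144 h were −1.08 ± 0.10 and −1.19 ± 0.10 (adjusted p = 1.29e-05 and 4.05e-06 by limma).

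Mrps33, a mitochondrion-specific protein, had 29.1 and 30.8 TPM, then 18.3 and 18.3 TPM, then 13.5 and 13.0 TPM in KH cells, which is −1.11 ± 0.11 at 144 h. Mrps16, the homologue of bacterial bS16, had 42.3 and 43.8, then 28.1 and 25.6, then 24.2 and 21.4 TPM in KH cells and 40.6 and 38.9, 23.1 and 23.8, then 15.6 and 18.7 TPM in DNMT3ABKO cells. Both Mrps16 libraries of DNMT3ABKO cells at 144 h lay below both KH libraries of that time (−0.39 ± 0.10, adjusted p = 0.0139 by limma). Mrps21, the homologue of bS21, fell by 0.77 ± 0.14 at 72 h and by 0.80 ± 0.14 at 144 h in KH cells and was called lower at both times in DNMT3ABKO cells too.

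The 3 proteins of the Mrps18 family, which are homologous to bacterial bS18 and occupy different places in the mitoribosome, did not have the same calls. Mrps18c was lower in all 4 comparisons with 0 h (−0.45 ± 0.09 and −0.41 ± 0.09 in KH cells, −0.60 ± 0.09 and −0.70 ± 0.09 in DNMT3ABKO cells). Mrps18a, whose product lies in the large subunit, had fold changes of −0.10 to −0.24 (SE 0.10) and Mrps18b −0.04 to −0.22 (SE 0.09), none of them called. The differences among the 3 genes were not tested. Mrps30, also in the large subunit by structure, was called lower at 72 h in KH cells (−0.23 ± 0.07) and at 144 h in DNMT3ABKO cells (−0.24 ± 0.07). Mrps36 was lower at 144 h in KH cells (−0.51 ± 0.15) and at 72 h in DNMT3ABKO cells (−0.40 ± 0.15), and its level of 10.8 to 20.8 TPM may share reads with 3 annotated pseudogene copies, of which 1 reached 8.64 TPM.

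**Figure D4:**
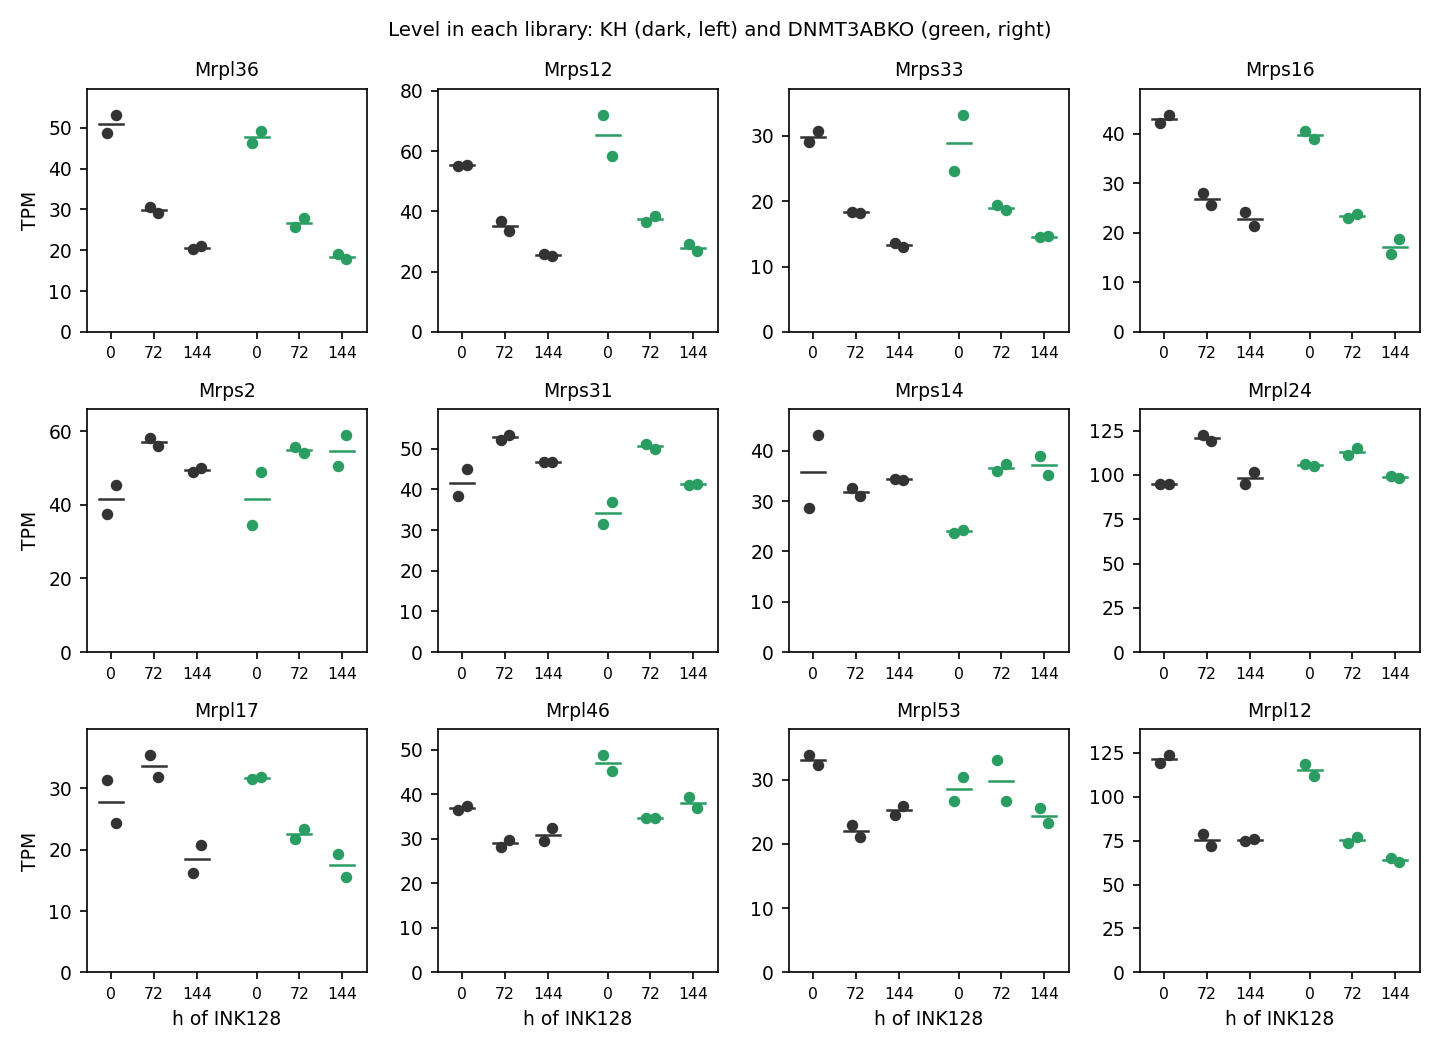
TPM (vertical axis, from 0) of 12 members in each library against hours of INK128, with KH in dark on the left and DNMT3ABKO in green on the right of each panel; points are libraries and lines group means. The top row shows genes whose time points are ordered downwards, such as Mrpl36 from 48.8 and 53.1 to 20.2 and 21.1 TPM in KH cells, and the second row shows genes called higher at 72 h in at least 1 line.

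A small number of members moved the other way. Called higher at 72 h in both lines were Mrpl2, Mrps2 and Mrps31. Mrps2 (ENSMUSG00000035772.11, mm10 chromosome 2, 28468066 to 28471178, plus strand), the homologue of bacterial uS2, had 37.6 and 45.3 TPM at 0 h, 58.0 and 56.1 TPM at 72 h and 49.0 and 50.1 TPM at 144 h in KH cells. In DNMT3ABKO cells it had 34.4 and 48.8, 55.7 and 54.0, and 50.6 and 58.9 TPM. Both 72 h libraries lay above both 0 h libraries in each line (0.46 ± 0.15 and 0.41 ± 0.15, adjusted p = 0.0269 and 0.0358 by limma). These calls were lost in 4 and 9 of the 18 alternatives. Without the first 0 h library of the line the values were 0.32 and 0.16, neither of them called. At 144 h Mrps2 was called in DNMT3ABKO cells alone (0.40, and 0.16 without that library, where it was not called), and that call was lost in 10 alternatives. Mrps31, a mitochondrion-specific protein, went from 38.3 and 45.0 to 52.2 and 53.3 TPM in KH cells (0.34 ± 0.09), a call that was lost without the first 0 h library (0.22). Its DNMT3ABKO libraries went from 31.5 and 36.9 to 51.2 and 49.9 TPM (0.56 ± 0.09), and that call held in every alternative.

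Mrpl24, the most abundant member, rose at 72 h in KH cells from 95.0 and 94.9 to 122 and 119 TPM (0.34 ± 0.06, adjusted p = 0.000962 by limma) and was back at 95.2 and 102 TPM at 144 h. Its DNMT3ABKO values were 106 and 105, 111 and 115, and 99.2 and 98.5 TPM, and the value at 72 h was not called against 0 h. Mrps14 rose in DNMT3ABKO cells, from 23.7 and 24.3 TPM at 0 h to 36 and 37.3 TPM at 72 h and 39.0 and 35.2 TPM at 144 h (0.59 ± 0.15 and 0.61 ± 0.15), and lay between 0.58 and 0.62 without either 0 h library. In KH cells the 2 libraries at 0 h were 28.5 and 43.1 TPM, so far apart that they spanned all 4 later values of 31.1 to 34.4 TPM. Mrpl50 was called higher in DNMT3ABKO cells at both times (0.48 ± 0.14 and 0.43 ± 0.14), with 27.4 and 40.5 TPM at 0 h, the lower value in the library that stood apart. Without that library it was at 0.20 at 72 h, still called, and at 0.15 at 144 h, not called.

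Few of the higher calls held under every alternative tried. In KH cells 1 of the 4 higher calls at 72 h and 26 of the 39 lower ones held in all other models and scalings, apart from the restriction to changes of at least 0.5, and with any library left out, and at 144 h 31 of the 49 lower calls did. In DNMT3ABKO cells 2 of 6 higher and 22 of 40 lower calls held at 72 h, and 1 of 5 and 29 of 45 at 144 h.

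Between 72 and 144 h the members changed less. In KH cells 10 members were lower at 144 than at 72 h (15.6% of all tested genes) and none was higher (7.24%), with a median of −0.08 against −0.04 for all tested genes. In DNMT3ABKO cells 16 were lower (18.5%) and 3 higher (8.81%), with a median of −0.08 against −0.06. These shares are near those of all genes, and with median-ratio rescaling both medians lay between −0.02 and 0. Of the calls, 2 of 10 in KH cells and, in DNMT3ABKO cells, 4 of 16 lower and 2 of 3 higher ones held in the same alternatives, and with the replicate number as a block 12 members were called in DNMT3ABKO cells, Mrpl3 not among them. Over the same interval the medians of the fibroblast markers were −1.68 in KH and −1.41 in DNMT3ABKO cells. Mrpl17 had the largest step in KH cells, from 35.4 and 31.9 TPM at 72 h to 16.1 and 20.8 TPM at 144 h (−0.84 ± 0.15, adjusted p = 0.00306 by limma). Mrpl41 went from 24.3 and 22.7 to 15.5 and 15.8 TPM (−0.55 ± 0.16, adjusted p = 0.0325 by limma), and its call was lost in 7 alternatives. Mrpl57 went in DNMT3ABKO cells from 12.3 and 12.7 to 7.93 and 7.38 TPM (−0.64 ± 0.13). Mrps25 had 11.7 and 12.5 TPM at 0 h in these cells, 8.48 and 7.90 TPM at 72 h and 11.3 and 12.3 TPM at 144 h, so it fell and rose again (0.48 ± 0.09 for the last step). For Mrpl3 the call (0.62 ± 0.20) rested on 1 library, since the 72 h values were 38.5 and 21.7 TPM, and without the second the fold change was 0.21.

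In the main fit, few members were called different between the lines at the same time point. Both rescalings of the libraries gave more such calls, as the last section states. At 0 h, 1 member was higher in DNMT3ABKO than in KH cells (4.92% of all tested genes) and none was lower (4.14%). At 72 h 3 were higher (9.26%) and 1 lower (10.0%), and at 144 h 2 were higher (11.0%) and 6 lower (15.5%). The members' fold changes between the lines ran from −0.53 to 0.42 at 0 h, −0.55 to 0.42 at 72 h and −0.62 to 0.36 at 144 h, with standard errors of 0.06 to 0.22. Leaving out the second DNMT3ABKO library at 0 h rested that group on the library that stood apart. The members' median at 0 h was then −0.16, against −0.13 over all tested genes. Leaving out the first gave 0.02, against 0.03.

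Mrpl46, a mitochondrion-specific protein of the large subunit, was the member called at all 3 times. It had 36.4 and 37.3 TPM in KH and 48.7 and 45.2 TPM in DNMT3ABKO cells at 0 h, 28 and 29.8 against 34.7 and 34.7 TPM at 72 h, and 29.4 and 32.4 against 39.4 and 36.8 TPM at 144 h. Each DNMT3ABKO library was above both KH libraries of its time (0.34 ± 0.08, 0.26 ± 0.08 and 0.29 ± 0.08, adjusted p = 0.0206, 0.0401 and 0.0167 by limma). The gene overlaps Mrps11 on the opposite strand, with which it shares 173 exon bases. The other members higher in DNMT3ABKO cells were Mrpl53 (0.42 ± 0.11) and Mrps26 (0.34 ± 0.08) at 72 h and Mrpl33 (0.29 ± 0.09) at 144 h. Lower were Mrpl17 at 72 h (−0.55 ± 0.15) and, at 144 h, Mrpl57 (−0.62 ± 0.13), Mrpl23 (−0.41 ± 0.09), Mrps16, Mrps23, Mrpl12 and Mrpl27. A pseudogene copy of Mrpl23, Mrpl23-ps1, was listed at 7.26 to 12.1 TPM. None of the calls between the lines held with every library left out in turn, and with the replicate number as a block 2 members were called at 72 h and 4 at 144 h, with Mrpl17 and Mrpl53 at 72 h and Mrpl33 at 144 h among the calls lost.

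Whether the lines differed in their response was tested as the difference of the fold changes. At 72 h 1 member was called with a higher response in DNMT3ABKO cells (3.38% of all tested genes) and none with a lower one (1.86%), and at 144 h none was called in either direction (4.89% and 3.7% of all tested genes). At an unadjusted p under 0.05 there were 8 members at each time. The standard errors of these differences ran from 0.08 to 0.31, and the differences themselves from −0.75 (Mrpl17) to 0.73 (Mrps14) at 72 h, with 74 of the 78 within 0.5 of 0, and from −0.42 to 0.64 at 144 h, with 77 within it. With the replicate number as a block no member was called at 72 h. With the first 0 h library of DNMT3ABKO cells left out, the members' median difference was −0.04 at 72 h and −0.07 at 144 h. With the second left out it was 0.13 and 0.09. The medians over all tested genes were −0.05 and −0.06 without the first and 0.10 and 0.09 without the second.

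The gene called at 72 h was Mrpl53, a mitochondrion-specific protein of the large subunit. It went from 33.7 and 32.3 TPM to 22.9 and 21.1 TPM in KH cells. In the DNMT3ABKO line it went from 26.6 and 30.4 TPM to 33.0 and 26.6 TPM, a difference in response of 0.62 ± 0.15 (adjusted p = 0.0485 by limma). Of its annotated exon bases 88.0% are shared with Gm42688 on the same strand, which was listed at 0.416 to 3.96 TPM, so the split of reads between the 2 is uncertain. The call was lost in 14 of the 18 alternatives.

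Transcript length and promoter sequence were then set beside the responses, as properties that the choice of the members did not use. The members are short, with a median annotated transcript length of 1051.5 bases against 2111.5 bases for the tested protein-coding genes. Among the members, shorter transcripts had the lower fold changes at 144 h, with a Spearman correlation across genes of 0.51 in KH and 0.37 in DNMT3ABKO cells. Over 12541 tested protein-coding genes the same correlations were 0.145 and 0.10. At 72 h the members had 0.417 in KH and 0.20 in DNMT3ABKO cells, against 0.121 and 0.124 over the protein-coding genes. With mean level the members' correlation at 144 h was −0.04 in both lines. Genes are not independent replicates, and all share the same libraries and the same rule for dividing reads by length.

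Promoters were available from RefSeq (GRCm38.p6) for 69 of the 78 members, from 250 bases before to 50 bases after the start. Motifs of factors known to act at mitochondrial genes were searched on both strands. The NRF1 motif GCGCANGCG was found in 16 of 69 members (23.2%), in 15.3% of the tested genes and in 7.03% of all genes of the table. The ETS motif CCGGAAG, bound by GABPA among others, was found in 26 members (37.7%, against 20.5% and 9.93%). The YY1 motif AANATGGCG was found in 11 (15.9%, against 6.12% and 2.76%) and the E-box CACGTG in 5 (7.25%, against 11.9% and 8.09%). At least 1 of the first 3 was present in 43 of the 69. A match describes the letters of the window and is not a site.

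The 250 bases before the start, 5′ to 3′ in the direction of the gene, are printed for 3 members described above, chosen because no annotated exon lies in them and because they show promoters with and without these motifs. Capitals mark the motif letters. Mrpl34 (chr8:71464676-71464925, plus strand) holds the ETS motif, Mrpl45 (chr11:97315466-97315715, plus strand) holds the NRF1 motif at 2 places, and Mrps2 (chr2:28467816-28468065, plus strand) holds none of the 4.
Mrpl34: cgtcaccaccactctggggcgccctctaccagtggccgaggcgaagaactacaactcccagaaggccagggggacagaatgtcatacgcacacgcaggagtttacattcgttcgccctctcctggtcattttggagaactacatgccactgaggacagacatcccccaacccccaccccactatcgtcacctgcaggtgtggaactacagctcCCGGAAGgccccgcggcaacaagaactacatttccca
Mrpl45: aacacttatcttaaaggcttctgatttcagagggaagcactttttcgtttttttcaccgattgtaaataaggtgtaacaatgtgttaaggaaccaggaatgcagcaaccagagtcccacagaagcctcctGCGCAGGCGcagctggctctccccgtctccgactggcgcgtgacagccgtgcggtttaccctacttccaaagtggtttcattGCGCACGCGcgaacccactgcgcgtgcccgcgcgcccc
Mrps2: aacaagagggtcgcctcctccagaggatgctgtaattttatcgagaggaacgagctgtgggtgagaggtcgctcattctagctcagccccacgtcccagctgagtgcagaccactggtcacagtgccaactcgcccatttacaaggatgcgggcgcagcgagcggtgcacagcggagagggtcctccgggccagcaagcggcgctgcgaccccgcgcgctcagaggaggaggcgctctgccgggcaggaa

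Over the 26 members with the ETS motif the median fold change at 144 h was −0.45 in KH and −0.51 in DNMT3ABKO cells, against −0.26 and −0.19 over the 43 without it. For the NRF1 motif the medians were −0.41 with and −0.37 without it in KH cells, and −0.41 with and −0.25 without it in the DNMT3ABKO line. For the YY1 motif they were −0.42 with and −0.37 without it in KH, and −0.36 with and −0.28 without it in DNMT3ABKO cells. At 72 h the ETS medians were −0.32 with and −0.23 without it in KH, and −0.39 and −0.22 in DNMT3ABKO cells. The other motifs had no common direction. At 72 h the NRF1 medians were −0.28 with and −0.29 without it in KH (−0.35 and −0.26 in DNMT3ABKO), and the YY1 medians −0.32 with and −0.28 without it in KH (−0.26 and −0.30 in DNMT3ABKO). The 5 members with the E-box had −0.45 at 72 h and −0.41 at 144 h in KH cells, against −0.28 and −0.38 for the 64 without it. In the DNMT3ABKO line they had −0.17 at both times, against −0.30 and −0.31. None of these differences was tested.

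Many members start close to a gene on the other strand. A protein-coding gene in the opposite direction started within 1000 bases upstream or 300 bases downstream of the start for 23 of the 78 members (29.5%), and for 13.1% of the 12566 tested protein-coding genes. The 22 such pairs with a tested partner outside the family gave a comparison of neighbours. At 144 h in KH cells the median was −0.37 for the members and 0.07 for their partners, and in DNMT3ABKO cells −0.35 and 0.11. Mrps12 and Sars2, the mitochondrial seryl-tRNA synthetase whose start lies 172 bases away, had −1.08 and −0.05 in KH cells. Mrpl36 and Ndufs6, a subunit of respiratory complex I, had −1.26 and −0.36. Mrps18b and Ppp1r10 had −0.21 and 0.36.

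The other genes that build and serve the mitoribosome were read from fixed lists. Proteins of the mitoribosome that carry no Mrp symbol (Dap3, Ptcd3, Chchd1, Aurkaip1 and Gadd45gip1) had 2 of 5 lower and none higher at both times in KH cells, with medians of −0.21 and −0.11. Aurkaip1 was called at both times (−0.21 ± 0.07 and −0.43 ± 0.07). In DNMT3ABKO cells 1 was lower at 72 h and 2 at 144 h, and Ptcd3 was higher at both (0.33 ± 0.09 and 0.41 ± 0.09).

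Factors that assemble the mitoribosome and modify its RNA had more higher than lower calls at 72 h. In KH cells 12 of 29 were higher (41.4%, against 28.3% of all tested genes) and none lower (median 0.29), among them Trub2, a pseudouridine synthase (0.42 ± 0.08), Mrm2, a methyltransferase of the large ribosomal RNA (0.44 ± 0.09), and Ngrn (0.31 ± 0.06). In DNMT3ABKO cells 14 were higher (48.3%, against 34.3%) and 1 lower (median 0.21), led by Gtpbp10, a GTPase of large-subunit assembly (0.76 ± 0.09). At 144 h the counts were 4 higher and 4 lower in KH cells (median 0.00) and 6 higher and 7 lower in DNMT3ABKO cells (median −0.01), with lower shares of 13.8% and 24.1% against 23.9% and 26.2% of all tested genes. Rpusd3, another pseudouridine synthase, was lower then in both lines (−0.57 ± 0.09 and −0.72 ± 0.09).

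The mitochondrial aminoacyl-tRNA synthetases, which charge the transfer RNAs, also had more higher than lower calls at 72 h. In KH cells 9 of 17 were higher (52.9%, against 28.3% of all tested genes) and 1 lower, with a median of 0.27. In DNMT3ABKO cells 8 were higher (47.1%, against 34.3%) and 1 lower, with a median of 0.24. Mars2 was at 0.64 ± 0.11 and 0.91 ± 0.11. The lower gene in DNMT3ABKO cells was Lars2, at −2.42 ± 0.30 at 72 h and −2.16 ± 0.30 at 144 h. Its values without each 0 h library are not given. At 144 h KH cells had 3 higher and 3 lower, and DNMT3ABKO cells 4 higher and 1 lower. Of the 15 mitochondrial translation factors, 2 were higher and 7 lower at 144 h in KH cells (46.7% lower, against 23.9% of all tested genes), and 2 were higher and 6 lower in DNMT3ABKO cells (40.0%, against 26.2%). Tufm, the elongation factor that brings the charged transfer RNA, was lower (−0.51 ± 0.07 and −0.38 ± 0.07), and Lrpprc, which stabilises mitochondrial messenger RNAs, was higher (0.41 ± 0.06 and 0.77 ± 0.06). Of 16 tested genes for transcription in mitochondria or of mitochondrial genes, 4 were higher and none lower at 72 h in KH cells, and 6 were higher and 1 lower in DNMT3ABKO cells, led by Myc (1.23 ± 0.06 and 1.74 ± 0.06). The higher shares of 25% and 37.5% are near the 28.3% and 34.3% of all tested genes.

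The products of mitochondrial translation work with nuclear-encoded subunits of oxidative phosphorylation, and these had a balance of calls like that of the members. Of 79 tested, 39 were lower and 3 higher at 72 h and 40 and 2 at 144 h in KH cells (medians −0.24 and −0.28), and 41 and 6, then 45 and 8, in DNMT3ABKO cells (medians −0.21 and −0.26). The lower shares were 49.4%, 50.6%, 51.9% and 57.0%, against 19.5%, 23.9%, 21.6% and 26.2% of all tested genes. Uqcrq, a subunit of complex III, was at −1.27 ± 0.08 in KH cells at 144 h. Cytosolic ribosomal proteins had few lower calls. Of the 76 tested, KH cells had 21 higher and 3 lower at 72 h (median 0.14), then 36 higher and 2 lower at 144 h (median 0.22). DNMT3ABKO cells had 27 higher and 3 lower, then 33 higher and 1 lower (medians 0.14 and 0.17). The higher shares at 72 h, 27.6% and 35.5%, are near those of all tested genes (28.3% and 34.3%), and at 144 h they were 47.4% and 43.4% against 27.4% and 31.4%. The lower shares ran from 1.32% to 3.95%, and the medians of all tested genes from 0.05 to 0.12. Without the first DNMT3ABKO library at 0 h the oxidative phosphorylation subunits had a median of −0.31 in that line at 72 h. The cytosolic ribosomal proteins had 0.115, the assembly factors 0.15 and the synthetases 0.19, against 0.04 over all tested genes. Without the second, the same lists had −0.15, 0.17, 0.18 and 0.22, against 0.19 over all tested genes. At 144 h the translation factors had a median of −0.19 with both libraries, −0.13 without the first and 0.01 without the second. All tested genes had 0.05, −0.01 and 0.13. Between the lines the members and these lists had medians between −0.18 and 0.06 at all 3 times.

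**Figure D5:**
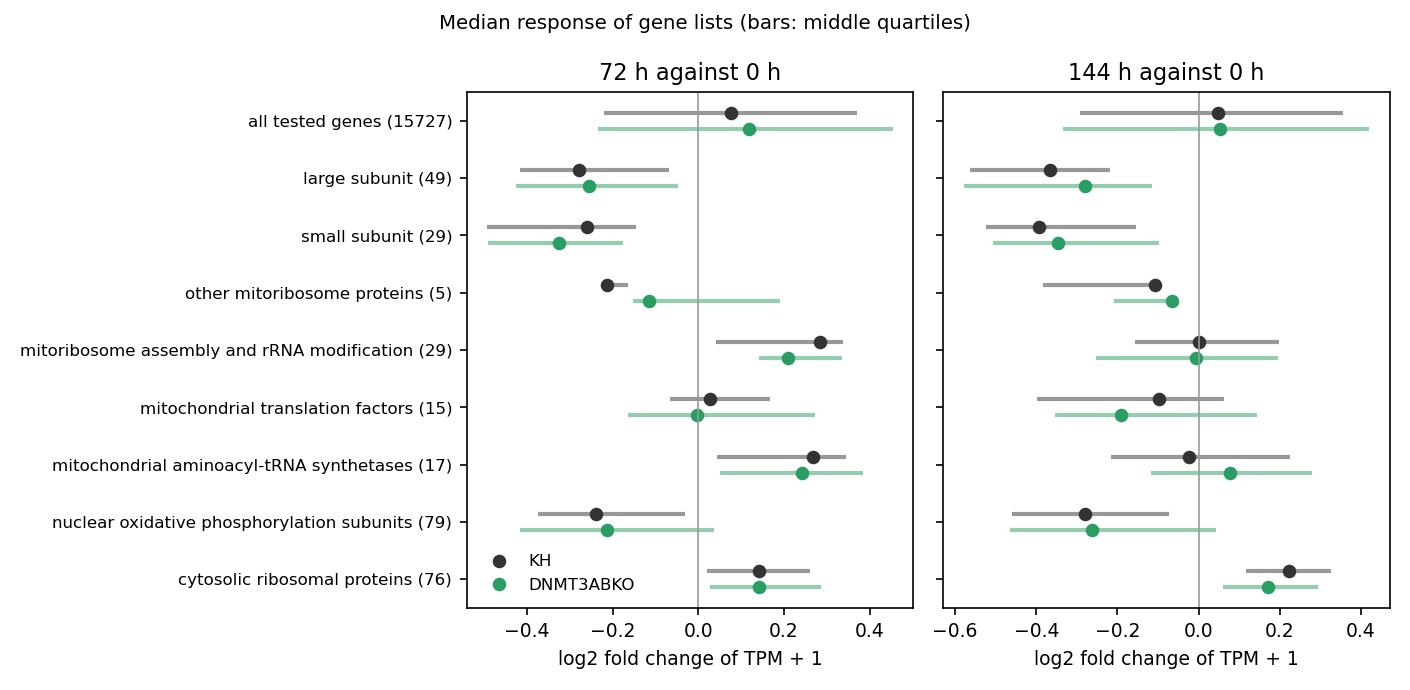
Median log2 fold change of TPM + 1 (points) and range of the middle quartiles (bars) at 72 h (left) and 144 h (right) against 0 h for all tested genes, both subunits and 6 other lists, with the number of tested genes in brackets; KH is dark and DNMT3ABKO green. Both subunits and the oxidative phosphorylation subunits lie below 0 at both times, cytosolic ribosomal proteins lie above 0, and assembly factors lie above 0 at 72 h and at 0 at 144 h.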

How the data were processed

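RNA was sequenced from 12 libraries of mouse ES cells (2 lines, 3 time points, 2 replicates). Per the labels, the authors depleted ribosomal RNA, added ERCC spike-in RNA, and used cutadapt 2.4, STAR 2.7.3a and StringTie 2.0 with mm10; the deposited values are TPM per gene and library, and each column sums to a fixed total. Read depth cannot be had from the deposited TPM and no depth summary of the study was used, so counting intervals are not given. No spike-in row was used, and the study's DESeq2 test was not applied, since TPM are not counts.

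Values were analysed as log2(TPM + 1), a scale that makes changes of low genes look smaller. Genes whose mean reached 1 TPM (15727) were tested with limma 3.58.1 in R 4.3.3 (lmFit, eBayes with a mean-variance trend; 6 groups, no covariate), with 11 contrasts and Benjamini-Hochberg adjustment over all genes. The script was tested on simulated data. Tables and figures were made with pandas 2.3.3, SciPy 1.17.1, NumPy 2.4.6 and matplotlib 3.10.9 under Python 3.11.15. Gene types, transcript lengths (median over protein-coding transcripts) and overlaps came from GENCODE M21, in which 73 of the 78 members had the deposited coordinates.

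The fit was repeated with a pseudocount of 0.1 TPM, without the filter (37364 genes), median-ratio rescaling, rescaling to the sum of nuclear protein-coding genes, the contrast's groups alone, the replicate number as a block, calls restricted to changes of at least 0.5 on the log2 scale, and each library left out in turn. The gene-by-gene differences between the replicates of a group were correlated, across genes, between the time points of each line. These correlations of differences ran from −0.104 to 0.10, which gave no sign that numbers paired the samples. The study states, however, that the time points of a replicate were handled in parallel.

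Named genes were the 3 highest and 3 lowest members by mean level, the 3 highest and lowest called members of each response from 0 h, the 2 of each other contrast, members with a role of their own, and up to 3 list genes by adjusted p. The members, lists and rules were chosen with earlier results of these data known, so their counts are descriptions. Mrpl2, Mrpl27 and Mrps23, members called in none of 6 contrasts, and head-to-head pairs were named after their values were seen, and the length and neighbour comparisons were added then. No set test was run.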

Additional observations from a re-analysis of the deposited data

Results flagged for a closer look

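The response of Mrpl53 at 72 h differed between the lines by 0.62 on the log2 scale (limma's test of the difference, adjusted p = 0.0485), with both KH libraries at 72 h below both at 0 h and the DNMT3ABKO libraries of the 2 times overlapping. The difference at 144 h was 0.16 ± 0.15 and was not called. The cause was not tested.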

How the results depend on the processing

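The median of the members was below 0 for every response from 0 h under each alternative that was run. A minimum absolute log2 fold change of 0.5 left 17 and 25 members called in KH cells at 72 and 144 h, 16 and 24 in DNMT3ABKO cells, 3 and 4 between 72 and 144 h, 0, 1 and 1 between the lines at 0, 72 and 144 h. A fit of the contrast's groups alone gave 28 and 30 for DNMT3ABKO cells at 72 and 144 h, 19 for 144 against 72 h in KH cells, 0, 16 and 17 between the lines, and 0 for the difference in response at 72 h. Without a filter, 5 were called for 144 against 72 h in KH cells, 2 between the lines at 72 h and 0 for the 72 h difference, as with a pseudocount of 0.1 TPM (0). Median-ratio rescaling gave 7, 9 and 15 between the lines and 3 and 3 for the differences in response. Rescaling to nuclear protein-coding genes gave 18 for 144 against 72 h in KH cells, 7, 9 and 18 between the lines and 4 and 3 for the differences. With the replicate block, 12 were called for 144 against 72 h in DNMT3ABKO cells, 2 and 4 between the lines at 72 and 144 h and 0 for the 72 h difference; the other counts stayed within 1.5 times. Leaving out 1 library gave 30 to 51 calls for KH cells at 72 h, 37 to 57 at 144 h, 3 to 16 for 144 against 72 h, 28 to 56 for DNMT3ABKO cells at 72 h, 38 to 56 at 144 h, 9 to 25 for 144 against 72 h, 0 to 27 between the lines at 0 h, 0 to 13 at 72 h, 2 to 20 at 144 h, 0 to 12 for the difference in response at 72 h, 0 to 16 at 144 h. Of 36 named pairs of gene and contrast, 20 kept their call in every setting run for single genes. Assigning subunits by structure moved no difference between subunit medians beyond 0.0682, the SD between replicate libraries. Depth was not used, so the precision of each value rests on 2 libraries a group.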
